A study of Schizosaccharomyces pombe with 3 samples.

Results

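RNA of din1Δ cells of fission yeast was compared with wildtype RNA on 1 Agilent 2-colour tiling microarray, and every part of the array that could be measured is described here. The unit is the tile, the mean log2 ratio of din1Δ over wildtype over the 20 odd or the 20 even probe numbers of a block of 40, with 10 or more usable probes. The din1Δ array gave 8704 such tiles, 4352 odd and 4352 even, of 26112 tiles on the 3 arrays of the series. They were made from 174063 numbered probes, of which 173471 carried no outlier flag, and 8137 tiles held all 20 probes.

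The din1Δ strain (p1044, Cy5) lacks din1 and was set against wildtype strain p344 (Cy3). The dhp1-1 strain (p1088, Cy5), measured on 2 arrays from biological replicates, was set against another wildtype, p1087 (Cy3). The dhp1-1 allele is temperature-sensitive, with the end of the gene partly replaced by a ura4+ transgene. All cultures grew to log phase in YEA medium at 30°C, which dhp1-1 cells survive, and ribosomal RNA was depleted from all RNA. The marker genotypes of p1044, p344, p1087 and p1088 are not given in the sources used here. With 1 array, din1Δ has no replicate and its ratios against wildtype have no p-value. The dyes were not swapped, so that a dye effect of a probe and a change in din1Δ cannot be told apart.

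Din1 is the fission yeast relative of budding yeast Rai1, an enzyme that removes pyrophosphate from RNA 5′ ends. It binds Dhp1 (Rat1 in budding yeast, Xrn2 in animals), the nuclear exoribonuclease that degrades RNA from its 5′ end. In the torpedo model of transcription termination, this enzyme follows RNA polymerase II after the transcript is cut at its poly(A) site and helps to release it. The arrays asked which transcripts differ from wildtype when either partner is impaired.

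Probe numbers alternate between the strands, as inferred from the wildtype signal. In wildtype on the din1Δ array, the log2 signal of a probe correlated at 0.67 with that of the probe 2 numbers on, over 172879 pairs of neighbouring probes, and at -0.02 with that of the next number. Odd and even tiles were therefore kept apart as opposite strands, but which is forward was not settled. The numbers follow the genome, since the 36 genes placed on them lie in the gene order of chromosomes II, III and I at 33 of 33 neighbouring pairs. The probe numbers of din1 itself were not established, so the deletion could not be checked on the array. The files used here hold no probe sequences, and tiles are named by strand and first probe number.

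On the din1Δ array 66.8% of the spots had wildtype signal well above background, and none was saturated. A set of 300 probes was spotted 7 times, and the SD of the log2 ratio among spots of the same probe was 0.164, or 0.037 for a mean of 20 probes. This is the error of spotting and scanning on 1 array and holds nothing of the spread between cultures. Repeated probes with wildtype signal above background gave an SD of 0.119, and those at background one of 0.222.

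Most of the genome gave near-equal signal in din1Δ and wildtype. The median of the 8704 tiles was 0.01 on the log2 scale, their SD 0.261, and 89.3% of them lay within 1.3-fold of wildtype (0.38 on this scale). The central 90% of tiles ran from -0.41 to 0.38 and the extremes from -2.21 to 2.64. Past 1.6-fold, the limit used for these arrays (0.68 on the log2 scale), lay 27 tiles above wildtype (0.310%) and 132 below it (1.52%). Falls thus outnumbered rises, as they did with the ratio of the scanner software, which put 116 tiles above 1.6-fold and 265 below. The split was the other way in dhp1-1, with 405 tiles above (4.65%) and 103 below (1.18%) in replicate 1, and 256 above (2.94%) and 79 below (0.908%) in replicate 2. At the lower limit of 1.3-fold the directions were nearly even in din1Δ, with 429 tiles above (4.93%) and 501 below (5.76%).

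**Figure D1:**
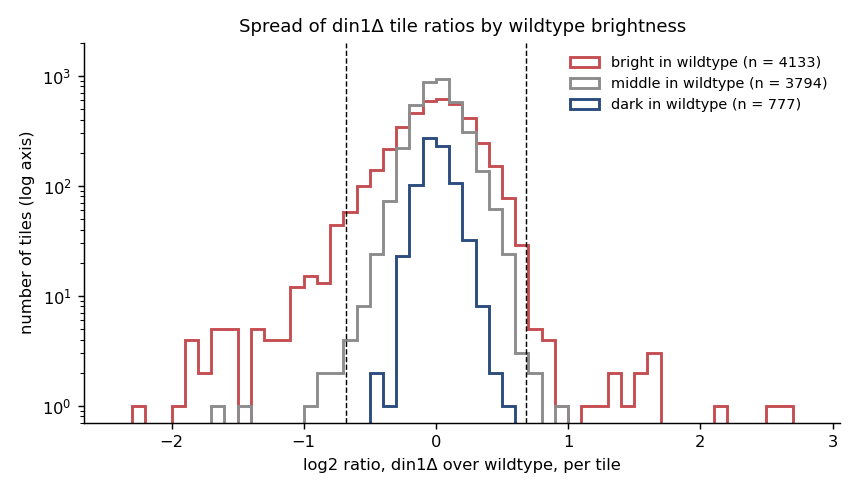
Number of tiles (log axis) by log2 ratio of din1Δ over wildtype, in bins of 0.1, for tiles bright, middle and dark in wildtype; dashed lines mark 1.6-fold. Bright tiles spread from -2.21 to 2.64 and lean to falls, while no dark tile reaches 1.6-fold.

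The spread grew with the wildtype signal. Tiles with wildtype signal well above background at 75% or more of their probes were called bright, those at 25% or fewer dark, and the others middle. The SD of the din1Δ ratio was 0.332 over 4133 bright tiles, 0.181 over 3794 middle tiles and 0.117 over 777 dark tiles. The bright tiles held 24 of the 27 rises and 124 of the 132 falls, and the dark tiles held none of either. The class medians were 0.01, 0.01 and 0.00, which the loess normalization sets close to 0 at each brightness. With median centring in its place the bright median was 0.02 and the dark median -0.01. Since the wildtype channel sets both the class and the ratio, this is a description. The offset of 50 added in background correction also draws the ratios of dim spots toward 0. How much of the spread by class this sets was not tested. With classes from the p1087 channels of the dhp1-1 arrays, bright tiles (4337) had an SD of 0.327 and dark tiles (583) one of 0.119.

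Ordered by wildtype level, the log2 Cy3 signal of a tile, the 871 dimmest tiles had an SD of 0.114 and none past 1.6-fold. In the 871 brightest, with a median level of 11.3, the SD was 0.455. They held 60 tiles below 1/1.6-fold (6.89%) and 14 above 1.6-fold (1.61%). Of the 132 falls, 60 thus lay among these brightest tiles, whose median was -0.03. Here too the wildtype channel sets both the order and the ratio, so that a high p344 signal favours both a high rank and a fall. These counts are therefore a description.

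**Figure D2:**
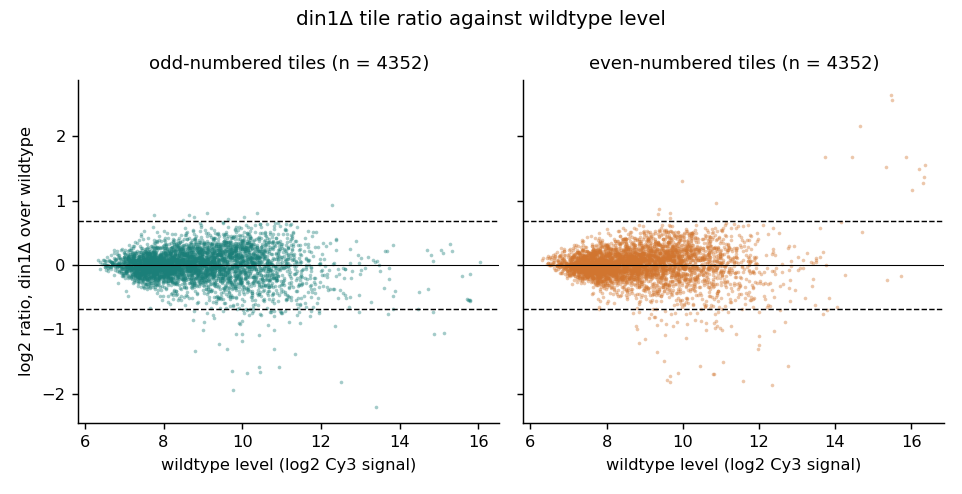
log2 ratio of din1Δ over wildtype against the wildtype level (log2 Cy3 signal), 1 point per tile, for odd tiles (left) and even tiles (right), with dashed lines at 1.6-fold. The points fan out with brightness, and the group at the upper right of the even panel is the brightest stretch described in the text.

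Dark tiles were close to wildtype, but their sign differed with what lay on the other strand. Of 388 dark tiles opposite a bright tile, 100 were above 0, and their median was -0.05. Of 190 dark tiles opposite another dark tile, 134 were above 0, with a median of 0.05, where 52.1% of all tiles were above 0. No tile of either kind was past 1.6-fold. Both medians are near 0.037 in size, the spotting error of 1 tile, which is not the error of a median over many tiles.

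Both strands behaved alike in spread, with an SD of 0.251 over odd and 0.270 over even tiles. Falls were as many on the odd strand (65) as on the even strand (67), whereas 18 of the 27 rises were even, 12 of them in 1 stretch. The odd and even tile of a block correlated at 0.32 over 4352 blocks. Neighbouring tiles of the same strand correlated at 0.29 (odd) and 0.38 (even), and tiles 5 blocks apart at 0.03 and 0.11. These correlations are descriptions, because the tiles share 1 hybridization.

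The 132 falls, chosen by their din1Δ ratio, had a median of -0.87. Their opposite tiles had a median of -0.22, and 10 of these were past the limit too. A same-strand neighbour past 1.3-fold in the same direction was present for 79 of the 132, and in 68 every probe of the tile was below 0. A choice by a low tile mean favours the second count, and neither share was taken over all tiles in this direction. The din1Δ ratio, which chose the falls, was below both dhp1-1 ratios in 118 of them, against 3931 of all 8704 tiles. The same tiles had medians of -0.37 and -0.06 in dhp1-1 replicates 1 and 2, and 24 and 10 of them were past the same limit there. In both dhp1-1 replicates 59 of all 8704 tiles were below 1/1.6-fold. The 9 tiles shared with din1Δ make 6.82% of the din1Δ falls and 15.3% of those 59, where 1.52% of all tiles fell in din1Δ. Both shares are thus larger than those over all tiles.

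A ratio can fall through its numerator or its denominator, and both wildtype strains were measured. Over the 132 falls, the median level was 9.51 in din1Δ, 10.1 and 9.69 in dhp1-1, and in wildtype 10.5 (p344), 10.4 and 9.65 (p1087 on the dhp1-1 arrays). The din1Δ channel was below both dhp1-1 channels at 67 of the 132 tiles, against 2787 of all 8704. The p344 channel was above both p1087 channels at 85 of them, against 2862 of all 8704. A low din1Δ ratio chose these tiles, which favours both a low din1Δ and a high p344 channel, so the counts are a description. The same holds for the 12 lowest tiles, where the din1Δ channel was below both dhp1-1 channels at 12 of 12 and the p344 channel above both p1087 channels at 4. Strain p344 was measured on 1 array, and strain and array cannot be told apart.

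The lowest tile was odd 119281, at -2.21 in din1Δ and at 0.03 and 0.15 in dhp1-1. Its level was 11.2 in din1Δ, 13.9 and 13.3 in dhp1-1, 13.4 in wildtype p344, and 13.9 and 13.2 in wildtype p1087. The low level was that of din1Δ. All 20 of its probes were below 0, from -3.18 to -1.31. Its opposite tile was at -0.95 and the next odd tile at -1.66, and the ratio to wildtype was 0.216.

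The next was odd 72681, at -1.94 in din1Δ and at -0.70 and 0.07 in dhp1-1, between atf1 and clr1 on chromosome II. It led a run of 3 odd tiles with a mean of -1.38, while its opposite tile was at -0.20. Between the same genes, even 63402 was at -1.70 in din1Δ and at -0.01 and 0.64 in dhp1-1, and even 49242 at -1.68 in din1Δ and at -0.26 and 0.84 in dhp1-1. At these 3 tiles the sign of dhp1-1 differed between its replicates, and odd 72681 was past 1.6-fold in replicate 1.

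Other low tiles lay between clr1 and las1 on chromosome II. Odd 87961 was at -1.82 in din1Δ and at -0.63 and 0.01 in dhp1-1, and odd 88841 at -1.69 in din1Δ and at -0.44 and 0.34 in dhp1-1. Even 36802, before tas3 on the same chromosome, was at -1.70 in din1Δ and at -0.30 and -0.16 in dhp1-1, with all 20 probes below 0. In these 3 tiles dhp1-1 was lower in replicate 1, which shared a slide with din1Δ, than in replicate 2.

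The 12 lowest tiles were all bright, 4 odd and 8 even, with ratios of 0.216 to 0.313 to wildtype. A same-strand neighbour past 1.6-fold in the same direction was present for 10 of them, against 48 of all 132 falls. Of the 12, 6 lay between placed genes of chromosome II and 6 between genes of chromosome III. The dhp1-1 values ranged from -0.89 to 0.03 in replicate 1 and from -0.31 to 0.84 in replicate 2. The din1Δ value was below both in all 12.

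**Figure D3:**
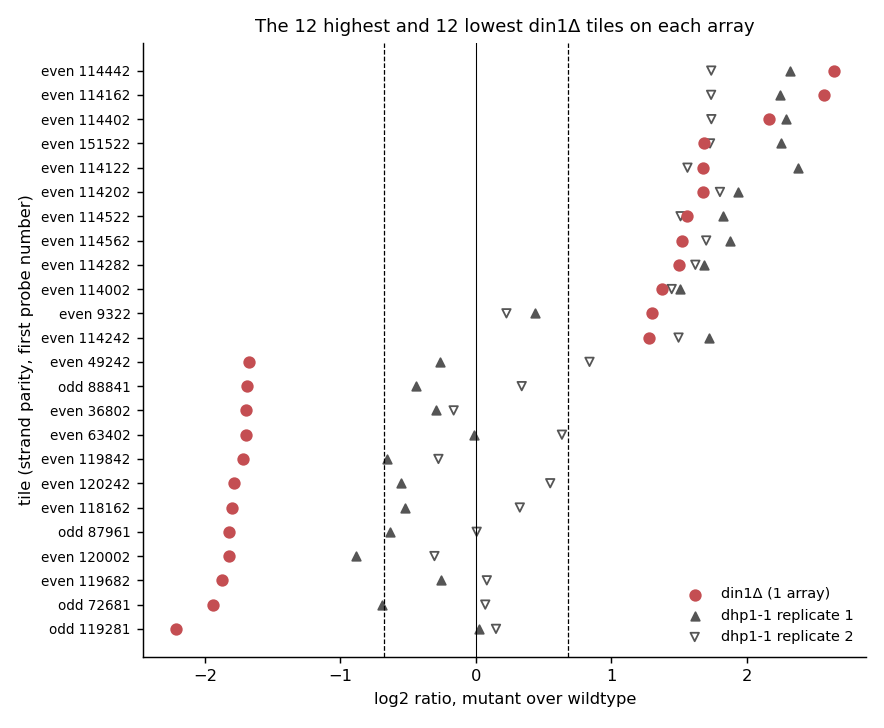
log2 ratio of mutant over wildtype in the 12 highest and the 12 lowest din1Δ tiles, 1 row per tile: din1Δ (circles), dhp1-1 replicate 1 (filled triangles) and replicate 2 (open triangles), with dashed lines at 1.6-fold. The low tiles stand apart from both dhp1-1 arrays, while 11 of the 12 high tiles are past 1.6-fold on all 3 arrays.

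Falls gathered in 1 stretch of chromosome III, probes 119161 to 120280, which was chosen after its values were seen. It lies after the first placed gene of chromosome III and before rix1, a gene of the Rix1 complex. Of its 56 tiles, 15 were below 1/1.6-fold (26.8%, against 1.52% of all tiles), 4 odd and 11 even. No window of 28 blocks that lay wholly outside this stretch held more than 5 falls, and the median of all windows was 0. In dhp1-1, 1 tile of the stretch was below that limit in replicate 1 and 0 in replicate 2.

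The stretch as a whole lay below wildtype, with a median of -0.23 over its 56 tiles (-0.19 odd, -0.31 even) against 0.01 for all tiles, and the falls stood below this level. On the odd strand, tiles 119281 and 119321 were at -2.21 and -1.66 in din1Δ, between neighbours at -0.24 and 0.12. On the even strand, tiles 119642, 119682 and 119722 were at -1.57, -1.87 and -1.50 in din1Δ, tiles 119802 and 119842 at -1.57 and -1.72, tiles 119962 and 120002 at -1.21 and -1.82, and tiles 120202 and 120242 at -1.36 and -1.78. The other falls of the stretch were even 119162 and 119282, at -1.15 and -0.95, and odd 119641 and 119681, at -0.88 and -0.72. Of these, even 119282 lies opposite odd 119281, and odd 119641 and 119681 lie opposite even 119642 and 119682, so that these falls covered both strands. The genes under these tiles were not identified.

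At the 15 falls of the stretch, chosen as such by the din1Δ ratio, the din1Δ channel was below both dhp1-1 channels at 15 of 15, with a median level of 8.07 in din1Δ, 9.59 and 9.67 in dhp1-1, 9.66 in wildtype p344, and 9.96 and 9.56 in wildtype p1087. The p344 median lay between those of p1087, and the lowest median was that of din1Δ. Odd 119321 fell in din1Δ and was raised in dhp1-1, at 1.00 and 1.09. The odd tiles 120121 and 120161 were at 0.22 and 0.09 in din1Δ, whereas in dhp1-1 they were at 2.13 and 1.90 in replicate 1 and 1.78 and 1.73 in replicate 2.

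**Figure D4:**
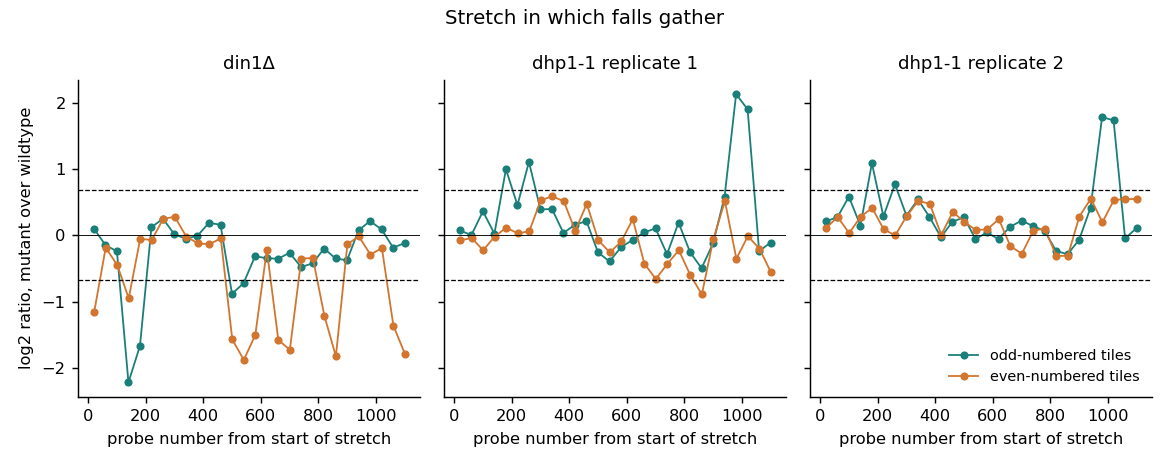
log2 ratio of mutant over wildtype for the odd and even tiles of probes 119161 to 120280, by probe number from the start of the stretch, in din1Δ (left) and in dhp1-1 replicates 1 and 2; dashed lines mark 1.6-fold. In din1Δ the tiles drop in separate groups to as low as -2.21, and in dhp1-1 1 tile in all lies below the lower line.

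Runs of 3 or more same-strand tiles past 1.3-fold numbered 21 for falls (73 tiles) and 11 for rises (49 tiles). The longest fall covered both strands at probes 17721 to 18000 on chromosome II, with 7 odd tiles at a mean of -0.51 and 6 even tiles at -0.49. The first 5 odd tiles of this run, among the brightest of the array at levels of 15.7 to 15.8 in wildtype, all lay between -0.56 and -0.53 in din1Δ. In dhp1-1 the odd run averaged -0.24 in replicate 1 and 0.23 in replicate 2, while the even run averaged 0.14 and 0.58, above wildtype in both replicates. Fall runs of 4 even tiles followed from probe 137962 (mean -0.97 in din1Δ, -0.73 and -0.35 in dhp1-1) and from probes 5442 (-0.63 in din1Δ, -0.18 and 0.09 in dhp1-1) and 682 (-0.53 in din1Δ, -0.25 and -0.46 in dhp1-1).

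The longest rise covered 16 even tiles, probes 113962 to 114600, between las1, the last placed gene of chromosome II, and the first placed gene of chromosome III. Its mean was 1.39 in din1Δ, 2.13 and 1.54 in dhp1-1, and 12 of the 16 tiles were past 1.6-fold in din1Δ against 16 and 16 in dhp1-1. The odd tiles of the same blocks averaged 0.19 in din1Δ, and none was past 1.6-fold. Both strands of these blocks together held 17 of the 30 brightest tiles of the array, and by this count they are called the brightest stretch. The odd tiles of probes 17721 to 18000 had a higher median wildtype level, 15.7 against 15.4 for the 16 even tiles here. The wildtype signal of the stretch was most like itself after 272 probes (r = 0.74 over 366 pairs of probes). This lag was picked for its r, and the next, over 10 probes away, was 260 (r = 0.52). In fission yeast the ribosomal DNA repeats lie at the ends of chromosome III, and ribosomal RNA was depleted before labelling. The identity of these tiles was not established, and the depletion of each RNA was not measured.

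Within this stretch the highest tiles of the genome were even 114442, at 2.64 in din1Δ and 2.32 and 1.74 in dhp1-1, and even 114162, at 2.57 in din1Δ and 2.25 and 1.74 in dhp1-1. Their levels were 18.1 in din1Δ and 15.5 in wildtype p344 for each. The lowest tile of the run, even 114322, with a wildtype level of 9.42, was at 0.46 in din1Δ and at 3.03 and 1.45 in dhp1-1. Even 151522 lies between grc3 of chromosome III and cid14 of chromosome I. It was at 1.68 in din1Δ and 2.25 and 1.73 in dhp1-1, with a wildtype level of 14.5. Its even neighbours were at 0.15 and 0.51 in din1Δ, the second of them past 1.3-fold.

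Outside the brightest stretch 15 tiles rose past 1.6-fold, 9 odd and 6 even, of which 13 were bright. None had a same-strand neighbour past the same limit. Their median was 0.79 in din1Δ and 0.74 and 0.35 in dhp1-1, and 8 and 5 of them were past the limit in dhp1-1. The highest was even 151522, described above. The second was even 9322, after clr3, the gene of a histone deacetylase of the SHREC complex. It was at 1.301 in din1Δ and at 0.43 and 0.23 in dhp1-1, with all 20 probes above 0, an opposite tile at 0.08 and neighbours at 0.32 and 0.14. Odd 11601, which like even 9322 lies between clr3 and clr4, was at 0.81 in din1Δ and at -0.52 and -0.32 in dhp1-1, so that the mutants had opposite signs.

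At 14 of these 15 tiles the p344 channel was below both p1087 channels, against 2198 of all 8704 tiles. At 5 the din1Δ channel was above both dhp1-1 channels, against 2806 of all 8704. These tiles were chosen by a high ratio over p344, which favours a low p344 channel, and the part of the strain was not tested. For even 9322 the level was 11.29 in din1Δ, 11.08 and 10.97 in dhp1-1, 9.99 in wildtype p344, and 10.64 and 10.74 in wildtype p1087. For odd 11601 it was 9.92 in din1Δ, 8.89 and 9.35 in dhp1-1, 9.11 in wildtype p344, and 9.41 and 9.67 in wildtype p1087.

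**Figure D5:**
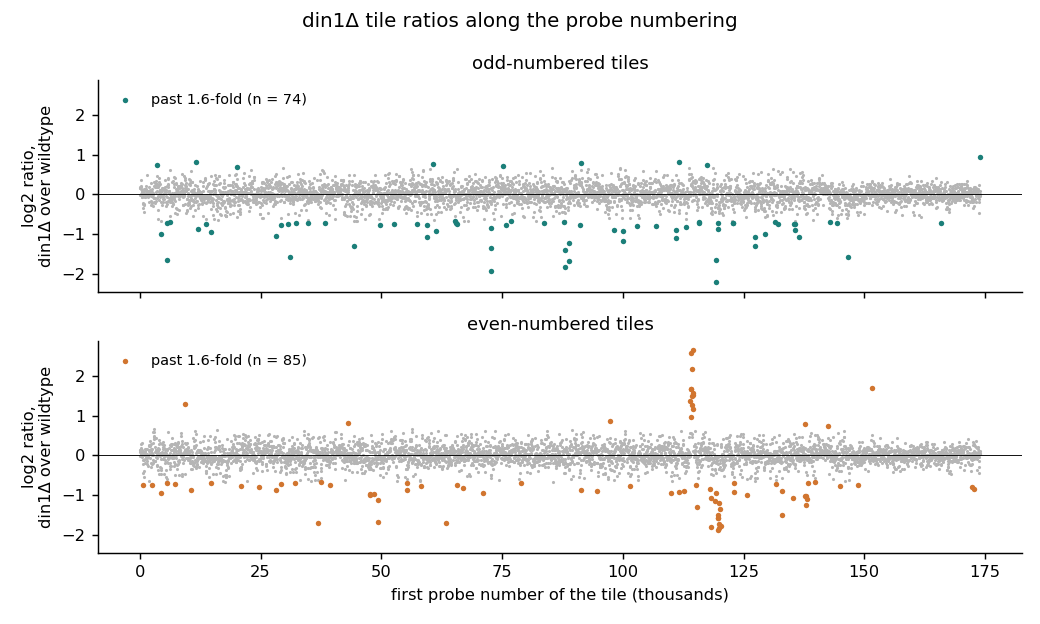
log2 ratio of din1Δ over wildtype against the first probe number of each tile, odd tiles above and even tiles below, with tiles past 1.6-fold in colour (74 odd, 85 even). Rises gather in the even panel at the brightest stretch, falls just after it, and few tiles pass the limit in the part of the numbering that holds chromosome I.

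Few tiles were past 1.6-fold in the part of the numbering that holds chromosome I. From cid14, its first placed gene, to the end of the numbering, 1 of 1060 tiles was above 1.6-fold and 3 below (0.283%), with an SD of 0.163 against 0.272 before. The first 19 placed genes, up to ipi1, held 9 to 84 probes each and the other 17 held 1 to 9. A tile from epe1 on therefore averages over more of the genome than one before it, and their ratios are not on the same footing.

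Stretches with like wildtype signal on both strands, as heterochromatic repeats can have, included both quiet parts and the brightest stretch. Taken as 8 or more blocks whose strands lay within 2 log2 units, 53 such stretches held 1578 tiles, with a median of 0.03. Many of the 53 lie in the part from epe1 on, where a tile averages over more of the genome. Like signal on both strands there need not mark repeats. The 53 stretches held 16 of the 27 rises (1.01% of their tiles, against 0.154% of the 7126 tiles outside) and 10 of the 132 falls. Of these 16 rises, 12 lay in the stretch of probes 113681 to 114680, which contains the brightest stretch and had a median of 0.26. The medians of the 53 stretches ranged from -0.16 to 0.26. The longest, probes 140601 to 142560 on chromosome III between ipi1 and epe1, had a median of 0.11 in din1Δ and 0.59 and 0.61 in dhp1-1. Of its 98 tiles, 90 were above 0 in din1Δ and 1 was past 1.6-fold, against 36 and 43 past it in dhp1-1. The stretch of probes 40401 to 41800 between atf1 and clr1 had a median of 0.12 in din1Δ and 0.50 and 0.44 in dhp1-1, with 60 of 70 tiles above 0 in din1Δ and 0 past 1.6-fold, against 17 and 21 in dhp1-1. In both of these stretches most din1Δ tiles were slightly above wildtype.

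The placed genes, which apart from 1 control code for silencing, RNA processing and DNA-bound factors, lay within 1.6-fold of wildtype at all but 1. Of 36 genes, 0 were above 1.6-fold in din1Δ and 1 was below it (2.78%), and their median was 0.05. That gene was pcr1, which codes for a DNA-binding partner of Atf1, at -0.96 in din1Δ and -0.15 and 0.42 in dhp1-1, from 1 probe. Past 1.3-fold, 6 of the 36 genes were above wildtype and 2 below, where 4.93% and 5.76% of all tiles were. The share of genes above was thus larger than that of tiles. Genes held 1 to 84 probes each and most tiles 20, so the shares are not on the same footing. Placement used the ratios the study lists for these genes, so the gene values are no independent check of that list. Among the 5 genes of the Rix1 complex list, which works in ribosome assembly and heterochromatin, 3 were above 1.3-fold. They included ipi1, at 0.56 in din1Δ and 0.27 and -0.02 in dhp1-1, and rix1, at 0.54 in din1Δ and 0.11 and -0.17 in dhp1-1. Of the same list las1 was at 0.22 in din1Δ and grc3 at -0.09.

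Other groups held values of both signs. Of the RNA processing list, cid14, a poly(A) polymerase of nuclear surveillance, was at 0.49 in din1Δ and 0.29 and -0.03 in dhp1-1. The gene of the RNA-binding protein Seb1 was at -0.47 in din1Δ, against 0.45 and 0.58 in dhp1-1, from 4 probes. The SHREC genes clr1, clr2 and clr3 were at 0.00, -0.19 and -0.19 in din1Δ, and the RNAi genes tas3 and dcr1 at 0.03 and -0.09. Over the full lists, 3 of 6 SHREC and sirtuin genes (-0.19 to 0.16) and 3 of 5 RNAi genes (-0.16 to 0.31) were above 0. The boundary factor gene epe1 was at -0.24, and atf1 and taz1 were at -0.26 and 0.11. All of these lay within 1.6-fold of wildtype.

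The only test the design allows is that of din1Δ against dhp1-1. In limma with Benjamini-Hochberg adjustment over 8704 tiles, 1160 tiles differed (adjusted p under 0.05, 13.3%), with din1Δ lower at 763 (8.77%) and higher at 397 (4.56%). With the ratio of the scanner software 75 tiles were called higher and 274 lower in limma, and with the deposited log2 ratios 0 were called, with 1323 at an unadjusted p under 0.05. The fit assumes that the lone din1Δ array varies like the dhp1-1 arrays, and each difference includes that between the wildtype strains. Of the 132 din1Δ falls, 96 were called lower than dhp1-1 and 2 higher, and of the 27 din1Δ rises, 8 were called higher and 4 lower. Both sets were chosen by the din1Δ ratio, which enters the difference, so these counts are no test of them. Of the 1160 called tiles, 795 (68.5%) lay within 1.3-fold of wildtype in din1Δ, a smaller share than the 89.3% of all tiles.

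The 12 lowest and 12 highest tiles were likewise picked for the din1Δ value that enters the difference, and their differences are given as a description. The 12 lowest differed from dhp1-1 by -2.30 to -1.23 on the log2 scale, and for odd 119281 the difference was -2.30 (standard error 0.153). Of the 12 highest, even 9322 was higher than dhp1-1 by 0.97, and even 114442 and 114162 by 0.61 and 0.57. The other 9, in the brightest stretch or at even 151522, were not called in limma. In the stretch of falls, itself chosen by its din1Δ values, 24 of the 56 tiles were called lower than dhp1-1 and 0 higher.

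The largest differences from dhp1-1 were of several kinds. Odd 99001 was at 0.05 in din1Δ and at 3.77 and 3.42 in dhp1-1, a difference of -3.54, and even 92202 at 0.04 in din1Δ and at 3.79 and 3.36 in dhp1-1, also -3.54. Next came odd 119321 of the stretch of falls, at -1.66 in din1Δ and at 1.00 and 1.09 in dhp1-1, a difference of -2.71. In the other direction, odd 111681 was at -0.48 in din1Δ and at -2.53 and -2.56 in dhp1-1, a difference of 2.06 (limma, adjusted p 2.5e-11 to 1.4e-08 for these 4 tiles). Over all tiles the din1Δ ratio correlated at 0.40 with dhp1-1 replicate 1, which shared its slide, and at 0.12 with replicate 2, while the dhp1-1 replicates correlated at 0.84. The part of the slide in these values was not tested.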

How the data were processed

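RNA of din1Δ (1 array) and dhp1-1 (2 arrays) was measured against wildtype RNA. The authors extracted spots with Agilent Feature Extraction 10.7.3.1 and deposited spot and local background intensities, a log10 ratio (Cy5 over Cy3) with a p-value per spot, and flags. A further table deposited by the authors has log2 ratios, with 0 wherever the scanner p-value was not under 0.05 (71.1% of the din1Δ probes). Of its per-sample columns, 0 were left out. File header and paper name different genome builds, so no coordinate is given. Median spot intensities, with no count depth, were corrected with normexp (offset 50) and normalized by loess in limma 3.58.1 (R 4.3.3), without control spots and without the 645 outlying spots of the din1Δ array. Channel levels were scaled between arrays (Aquantile). Tiles were formed in Python 3.11.15 with pandas 2.3.3, and the din1Δ minus dhp1-1 contrast was fitted with lmFit and eBayes over all tiles and tested on simulated data. Genes were placed by matching the ratios the study lists for them to the deposited ratios of din1Δ and dhp1-1 replicate 1, over runs of every other probe. The listed ratios gave the probe numbers only, but the gene values come from the same arrays as the list. Genes were named through assembly ASM294v3. Where several runs matched (10 genes) the shortest was taken, and the first among those of equal length. Text names the 12 highest and 12 lowest tiles, the longest runs, flanking genes and, chosen after values were seen, other runs, tiles, genes and the 4 stretches described. Members and lists were chosen with earlier results of these data known. Some genes placed are not named here. Alternatives covered background, normalization, dim probes, tile size and borders, strand and replicates.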

Additional observations from a re-analysis of the deposited data

Results flagged for a closer look

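The tile ratios of din1Δ and dhp1-1, both against wildtype, differed at 1160 of 8704 tiles in limma (adjusted p under 0.05). This is a difference between mutants that includes the difference between their wildtype strains.

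The following named tiles were among them, as the din1Δ minus dhp1-1 difference on the log2 scale. They were picked for extreme din1Δ values, which enter the difference, so their calls are no independent support. On the odd strand it was -2.30 at tile 119281, -1.63 at tile 72681, -1.51 at tile 87961 and -1.64 at tile 88841. On the even strand of the stretch in which falls gather it was -1.79 at tile 119682, -1.23 at tile 120002, -1.78 at tile 120242 and -1.25 at tile 119842, and just before it -1.70 at tile 118162. Elsewhere on the even strand it was -2.01 at tile 63402, -1.47 at tile 36802 and -1.96 at tile 49242. Din1Δ was higher than dhp1-1 by 0.97 at even tile 9322, by 0.57 at 114162 and by 0.61 at 114442.

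Probes of random sequence, which enter no tile, also gave signal. Of 1567 such probes on the din1Δ array, 21.4% were well above background in wildtype and 5.36% were past 1.6-fold, against 11.3% of the numbered probes. Numbered probes above background in neither channel were past it at 0.894%.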

How the results depend on the processing

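Of the 12 lowest and 12 highest tiles, all kept their direction in each setting that measured them. They stayed past 1.6-fold too, except even 114122 (0.55 in the lower of its parts) with tiles of 10 probes, and 1 low tile was not measured with probes above background in both channels. The ratio of the scanner software moved most values: the SD to 0.344, the tiles above 1.6-fold to 116 and below it to 265, the runs to 61 falls and 33 rises, the dark tiles opposite bright tiles to -0.10, and the tiles differing from dhp1-1 to 349. With probes above background in 1 channel the SD was 0.322, 55 tiles were above 1.6-fold and the dark median was 0.39, of 2 tiles left; with both channels the SD was 0.329 and 60 tiles were above. With the log2 ratios as deposited, 54 tiles were above, the dark tiles opposite bright tiles were at 0, and 0 tiles differed from dhp1-1 in limma (1323 at an unadjusted p under 0.05). Tiles of 10 probes gave an SD of 0.302, with 152 of 17406 tiles above, 388 below and 2482 differing. Under median centring 570 tiles differed. Odd tiles alone gave 9 above and 65 below, even tiles 67 below, from fewer tiles. With the median over probes 2 placed genes, pcr1 and seb1, were past 1.6-fold. Apart from the fewer tiles of single strands, and filters, the cause was not tested. The difference from dhp1-1 was past 1.6-fold at 470 tiles, and at 465 to 607 with each dhp1-1 replicate left out (465 also with slide as a block, which leaves replicate 1); these counts have no test and were added after the values were seen, as were the settings of runs and placed genes. Shifted tile borders were not run for single tiles. No paired analysis was possible because din1Δ has 1 array, so both groups have only 1 number in common. Signal over background limits the dark tiles, and the single array limits all others.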
